A study of Arabidopsis thaliana with 6 samples.

Results

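The genes PIF1 (AT2G20180), PIF3 (AT1G09530), PIF4 (AT2G43010), PIF5 (AT3G59060) and HFR1 (AT1G02340) encode 4 phytochrome interacting factors and a related protein that restrains them. They are 5 of the 27444 protein-coding genes on the nuclear chromosomes of Arabidopsis thaliana. They were chosen by name, and a peak was counted at a gene when its summit lay inside the gene or within 1000 bp of it. By this rule, 14 of the 37625 deposited peaks lay at these genes.

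The peaks came from whole Col-0 seedlings grown in the dark for 3 days at 24 °C and then kept for 4 hours in 10 ppm ethylene, carried in hydrocarbon-free air, or in hydrocarbon-free air alone. ENAP1 ChIP used an antibody to green fluorescent protein, and ENAP1-EIN2 reChIP took the chromatin recovered that way through a second round with an EIN2 antibody. ENAP1 is a nuclear protein that associates with EIN2, and a part of EIN2 moves into the nucleus when ethylene is perceived. The 4 peak lists were ENAP1 ChIP in ethylene, ENAP1 ChIP in air, reChIP in ethylene and reChIP in air, each from 1 library, and 2 further libraries were inputs. The labels call all seedlings Col-0 and do not describe how ENAP1 was tagged, and a precipitation with the same antibody from seedlings without the tag was not analysed here.

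Phytochrome interacting factors are basic helix-loop-helix proteins that bind G-box and related DNA elements. They build up in darkness, where they promote hypocotyl elongation and hold back greening, and in light the activated phytochromes bind them and trigger their breakdown. PIF1 limits chlorophyll synthesis in the dark and germination of imbibed seeds. PIF3 was the founding member of the family and is also a direct target of EIN3, the transcription factor at the end of the ethylene pathway. PIF4 and PIF5 drive growth in shade and warmth. HFR1 lacks DNA binding of its own, pairs with these factors and keeps them off DNA.

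The libraries kept 8811720 (ENAP1 ChIP, ethylene), 8400099 (ENAP1 ChIP, air), 304818 (reChIP, ethylene) and 644263 (reChIP, air) tags after removal of duplicates. Duplicates had been 34 to 37% of the tags in ENAP1 ChIP and 83 to 84% in reChIP. The median peak held 62 and 55 tags at its summit in the ENAP1 ChIP lists of ethylene and air, but 4 and 5 tags in the reChIP lists. Each group had 1 library, so differences between groups had no replicate check and are given without p-values. Intervals below are exact Poisson 95% intervals on the tags at a summit and cover counting error only. A place without a peak is one where none was called, which does not show that the protein was absent. In whole seedlings, strong occupancy in few cells and weak occupancy in many cells cannot be told apart.

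Each of the 5 genes had a peak in at least 1 list, and 0 of 5 had a peak in all 4. In ENAP1 ChIP, PIF5 and HFR1 had peaks in ethylene, and PIF3, PIF4 and PIF5 had peaks in air. In reChIP, PIF1, PIF3 and PIF5 had peaks in ethylene, and PIF3 had one in air. PIF5 was the 1 gene with an ENAP1 ChIP peak in both treatments, and PIF1 had reChIP peaks without an ENAP1 ChIP peak. The counts were thus 2 of 5 genes in the ethylene ENAP1 ChIP, where 36.4% of all protein-coding genes had a peak, and 3 of 5 in the air ENAP1 ChIP, where 38.6% had one. They were 3 of 5 in the ethylene reChIP (34.0% of all genes) and 1 of 5 in the air reChIP (30.5% of all genes). Among the 8551 genes as long as these (2265 to 3887 bp), the shares were 43.8%, 46.0%, 38.9% and 34.6% in the same order. Since a single gene moves these counts by 20 percentage points, the counts themselves are not a result about the 5 genes, and what follows describes the peaks.

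**Figure D1:**
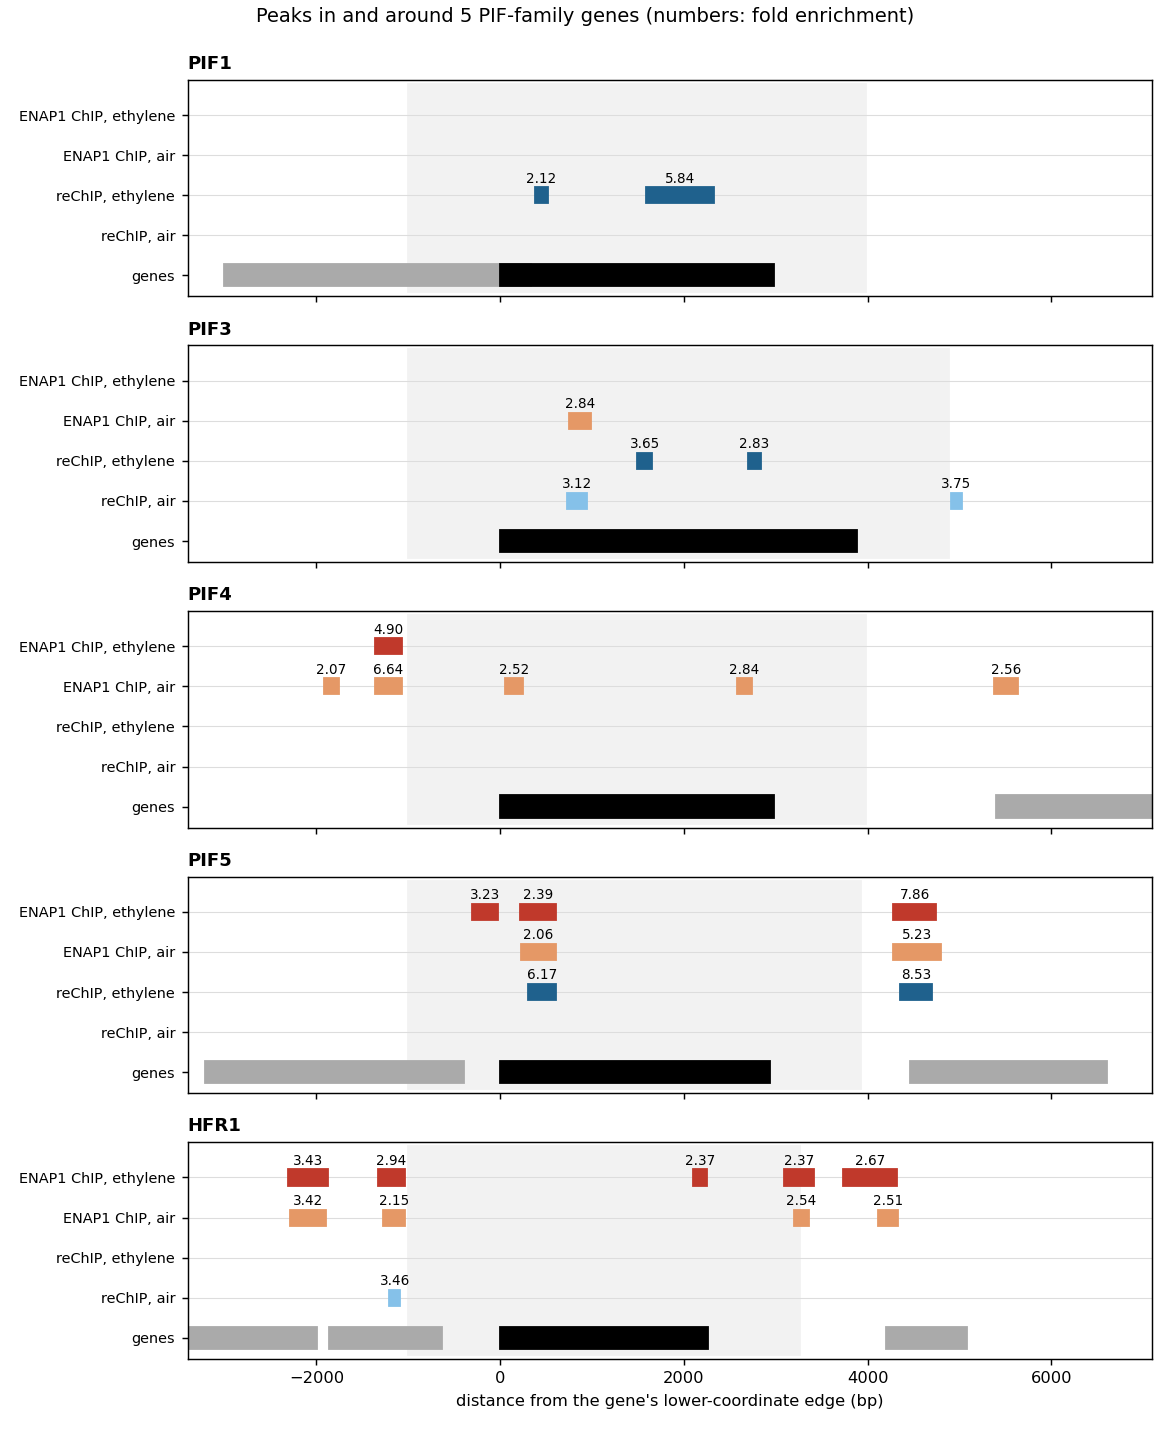
Peaks of the 4 lists in and up to 3000 bp around each of the 5 genes, with the distance from the gene's lower-coordinate edge in bp along the horizontal axis. Each coloured bar is a peak with its fold enrichment above it, the black bar is the gene, grey bars are neighbouring protein-coding genes and the shaded area is the gene with 1000 bp on each side. PIF5 carries ENAP1 ChIP peaks and an ethylene reChIP peak at 1 place inside the gene and at another beyond the shaded area, whereas PIF1 carries ethylene reChIP peaks alone.

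At PIF1 the ethylene reChIP list held 2 peaks, both inside the gene. The stronger one (TAIR10, 2:8705614-8706356) was 743 bp wide and had 7 tags at its summit (interval 2.81 to 14.4), which was 18.9 times the genome average of that library (7.59 to 38.9). Its fold enrichment was 5.84, at percentile 98.1 of its list, with a −log10 q of 4.29. Fold is the ratio of signal to control after 1 is added to each. With a genome average of 0.371 tags in this list, the added 1 makes the fold smaller than the plain ratio. The control of this list was the reChIP of air seedlings: its folds set ethylene reChIP against air reChIP, not reChIP against input. The control level there was at the genome average, the lowest value that the control took in each list. An air level below that average at this place could therefore not be seen. The weaker peak (2:8704399-8704544) rested on 2 tags with a fold of 2.12 and a q of 0.359, and its summit lay 82 bp from AT2G20170, a gene that overlaps PIF1.

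No ENAP1 ChIP peak lay within 1000 bp of PIF1 in either treatment. The nearest summits stood 3586 bp away in ethylene (3.09-fold) and 3612 bp away in air (2.34-fold). The nearest air reChIP summit was 8809 bp away. The 5.84-fold peak thus marked DNA that the ethylene reChIP held above a control level at the genome average, at a place where no ENAP1 ChIP peak was called.

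PIF3 had peaks in 3 lists, all of them inside the gene. The ethylene ENAP1 ChIP was the list without one, and its nearest summit was 8762 bp away. The ethylene reChIP had 2 peaks, at 1:3077259-3077425 with 4 tags (1.09 to 10.2; 3.65-fold, q of 0.0248) and at 1:3078463-3078608 with 3 tags (0.619 to 8.77; 2.83-fold, q of 0.0953). Neither overlapped a peak of the other lists.

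In air the PIF3 peaks lay elsewhere in the gene. The air ENAP1 ChIP peak (1:3076522-3076757) had 34 tags (23.5 to 47.5), 3.04 times the genome average, over a local control at the genome average. It was 2.84-fold enriched, at percentile 55.6 of its list. The air reChIP had a peak at the same place (1:3076494-3076715) with its summit 34 bp away and a fold of 3.12, but it rested on 4 tags (1.09 to 10.2) and its q was 0.163. At PIF3, therefore, the only overlap among the 4 lists was between the reChIP and the ENAP1 ChIP in air. A further air reChIP peak stood 1130 bp beyond the upper edge of the gene, outside the window, with 5 tags, a fold of 3.75 and a q of 0.0507.

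PIF4 had peaks in the air ENAP1 ChIP alone. The peak near the upper edge of the gene (2:17888677-17888842) had 72 tags (56.3 to 90.7), 6.43 times the genome average, over a local control at 2.20 times the average, and was 2.84-fold enriched. The peak near the lower edge (2:17886149-17886347) had 30 tags (20.2 to 42.8) and a fold of 2.52. Their summits lay 319 and 133 bp inside the gene, and neither overlapped an ethylene ENAP1 ChIP peak, where the fewest tags at any called summit were 23.

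The strongest ENAP1 ChIP site near PIF4 was outside the window of 1000 bp and was called in both treatments. Its summit was 1211 bp beyond the lower edge of the gene in ethylene (2:17884742-17885037; 4.90-fold, percentile 87.1) and 1217 bp in air (2:17884739-17885029; 6.64-fold, percentile 95.4). It held 70 tags (54.6 to 88.4) in ethylene and 81 tags (64.3 to 101) in air. Weaker air peaks stood 1771 bp beyond the lower edge (2.07-fold) and 2490 bp beyond the upper edge, inside PAO2 (2.56-fold). No reChIP peak lay within 3000 bp of PIF4, the nearest summits being 4060 bp away in ethylene and 7655 bp in air. A count by the 1000 bp rule therefore reads PIF4 as an air gene, although its strongest nearby site was present in both lists.

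PIF5 had the most tags of the 5 genes. Inside it, the ethylene ENAP1 ChIP peak (3:21828126-21828513) had 138 tags (116 to 163) and the air peak (3:21828129-21828510) had 144 tags (121 to 170), which was 12.4 and 12.9 times the genome average. The fold was 2.39 in ethylene and 2.06 in air, at percentiles 26.1 and 15.8 of the lists, over a local control of 5.09 times the average in ethylene and 6.18 in air. The medians of that control level over all peaks were 1.52 and 1.47 times the average. Input DNA was thus plentiful at this place in both treatments, and the fold is the excess of the ENAP1 ChIP over it.

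An ethylene reChIP peak lay on this site of PIF5 (3:21828206-21828512). It had 9 tags (4.12 to 17.1), 24.3 times the genome average, and a fold of 6.17 over the air reChIP, at percentile 98.8 of its list. The 1 added to signal and control makes this fold, too, smaller than the plain ratio. The summit of the reChIP peak was 119 bp from that of the ethylene ENAP1 ChIP peak and 13 bp from that of the air one. The local air reChIP level was 1.68 times the genome average, and the nearest air reChIP summit was 13462 bp away. The air input was high at the same site, and its part in the reChIP result was not tested.

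A further ethylene ENAP1 ChIP peak at PIF5 (3:21827600-21827876) lay just outside the lower edge of the gene, with 49 tags and a fold of 3.23. Its summit was 163 bp from PIF5 and 233 bp from PAO3, a polyamine oxidase gene on that side, and it overlapped no air peak. Beyond the upper edge, outside the window of 1000 bp, all but the air reChIP had a peak at 1 further site. Its fold was 7.86 in the ethylene ENAP1 ChIP (3:21832186-21832652), 5.23 in the air ENAP1 ChIP and 8.53 in the ethylene reChIP (3:21832257-21832607; percentile 99.9 of the list, 11 tags). The summits lay 1522 to 1546 bp from PIF5 and at most 5 bp outside AT3G59070, so this site belongs to the edge of that neighbour by distance.

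HFR1 had peaks in the ethylene ENAP1 ChIP alone, and both were weak. One lay inside the gene (1:467711-467865), 104 bp from its upper edge, and the other 921 bp beyond that edge (1:468709-469028). Each had 29 tags (19.4 to 41.6), a fold of 2.37 and a q of 0.0409, at percentile 25 of the list. The air list had a peak on the second site (1:468809-468979) with 31 tags and a fold of 2.54, but its summit was 1022 bp from the gene and so fell 22 bp outside the window. The absence of HFR1 from the air count thus rests on the place of a summit, and no air peak lay on the site inside the gene.

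ENAP1 ChIP sites with more tags lay inside the neighbours of HFR1. They were in GL22 and AT1G02330 on the lower side and in AT1G02350 on the upper side. The one in GL22 was 1220 bp from HFR1 in ethylene (2.94-fold, 106 tags) and 1192 bp in air (2.15-fold, 92 tags). An air reChIP peak lay on it (1:464410-464526) with 9 tags, a fold of 3.46 and a q of 0.0395, in a region where the input was 3.14 times the genome average. The one in AT1G02330 was 3.43-fold in ethylene and 3.42-fold in air. The one in AT1G02350 was 2020 bp from HFR1 in ethylene (2.67-fold, 47 tags) and 2011 bp in air (2.51-fold, 46 tags). No ethylene reChIP peak lay within 3000 bp of HFR1.

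**Figure D2:**
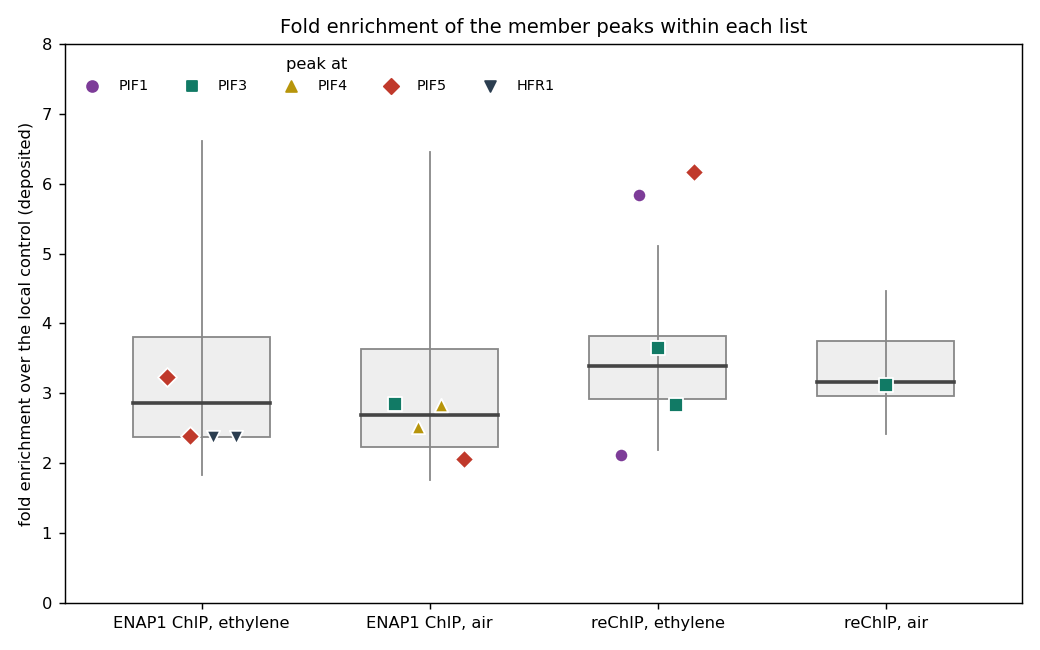
Fold enrichment over the local control (vertical axis) of the 14 peaks at the 5 genes, by list and gene. Boxes span percentiles 25 to 75 of each whole list with the median as a thick line, and thin lines span percentiles 5 to 95. All 8 ENAP1 ChIP peaks lie at or below 3.23-fold, while the ethylene reChIP peaks in PIF1 (5.84-fold) and PIF5 (6.17-fold) lie above the 95th percentile of their list.

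Set against the whole lists, the ENAP1 ChIP peaks at the 5 genes were ordinary or low. Their median fold was 2.38 for the 4 ethylene peaks and 2.68 for the 4 air peaks, beside 2.86 and 2.69 over all peaks of those lists. The 5 ethylene reChIP peaks had a median of 3.65, beside 3.39 over all, and ranged from 2.12 to 6.17. The single air reChIP peak stood at 3.12, beside 3.16. A q of 0.05 or lower was reached by all 8 ENAP1 ChIP peaks and by 3 of 5 in the ethylene reChIP, but not by the air reChIP peak. With that limit the counts were 2 of 5 genes in the ethylene ENAP1 ChIP (34.4% of all genes), 3 of 5 in the air ENAP1 ChIP (37.5%), 3 of 5 in the ethylene reChIP (22.5%) and 0 of 5 in the air reChIP (7.07%). With a −log10 q of at least 5 they were 1 (22.4%), 2 (26.9%), 0 (0.707%) and 0 (0.222%) in the same order. With a window of 3000 bp they were 3 (52.6%), 4 (55.3%), 3 (52.5%) and 2 (49.9%), and the air reChIP count was already 2 at 2000 bp (40.7%).

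Of the 14 peaks, 12 lay inside the gene. The ENAP1 ChIP summits inside the genes were 382 bp (PIF5) and 104 bp (HFR1) from the nearer gene edge in ethylene, beside a median of 154 bp over all in-gene summits of that list. In air they were 849 bp (PIF3), 133 and 319 bp (PIF4) and 514 bp (PIF5) from it, beside a median of 170 bp. The ethylene reChIP summits were 415 to 1529 bp from the nearer edge, beside 499 bp over the list, and the air reChIP summit was 815 bp from it, beside 615 bp. Gene starts and ends were not told apart. Another protein-coding gene lay within 1000 bp of 5 of the 14 summits, but for 0 of 14 was another gene as near as the named one.

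A further 16 peaks lay more than 1000 and at most 3000 bp from the genes, 5 in the ethylene ENAP1 ChIP, 8 in the air ENAP1 ChIP, 1 in the ethylene reChIP and 2 in the air reChIP.

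The comparison of ethylene with air could be made at ENAP1 ChIP sites that both lists had called. Within the genes and 1000 bp around them, 2 of the 4 ethylene peaks overlapped an air peak, beside 79.5% of all ethylene peaks, and in the other direction the count was 1 of 4, beside 72.3% of the air list. Of the 5 ethylene reChIP peaks, 1 overlapped an ethylene ENAP1 ChIP peak (17.4% of that list) and 0 overlapped an air reChIP peak (1.05% of that list). The 1 air reChIP peak overlapped an air ENAP1 ChIP peak (11.3% of that list).

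**Figure D3:**
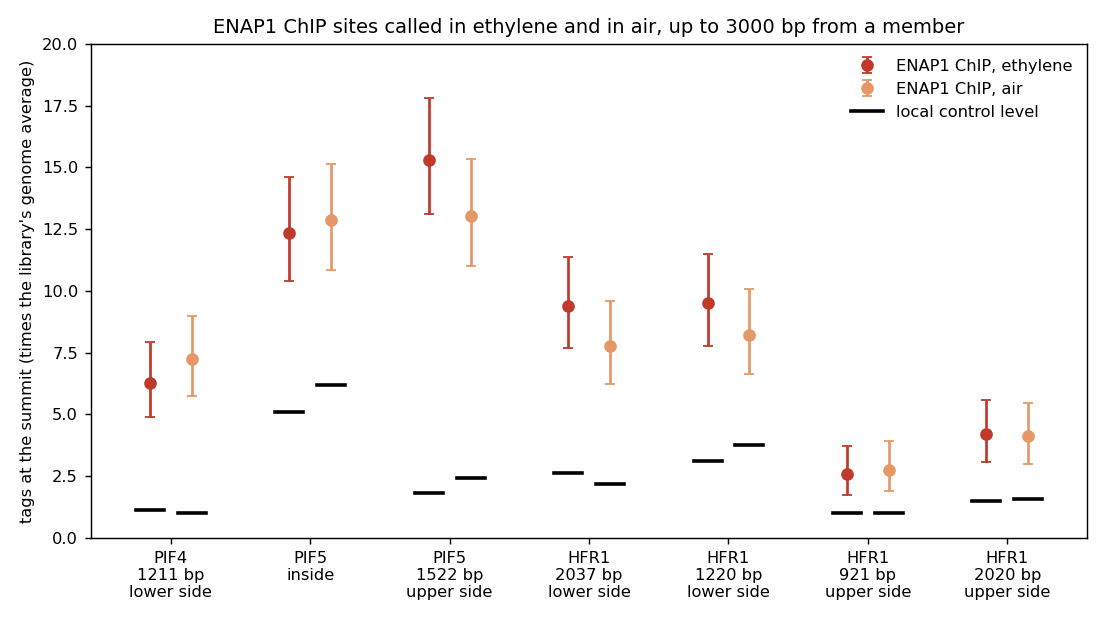
Tags at the summit, in multiples of each library's genome average (vertical axis), at the 7 ENAP1 ChIP sites within 3000 bp of PIF4, PIF5 or HFR1 that were called in ethylene and in air. Bars are exact Poisson 95% intervals and black lines the local control level on the same scale. The ethylene and air intervals overlap at each of the 7 sites, and the control level is highest at the site inside PIF5, at 5.09 times the average in ethylene and 6.18 in air.

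Within 3000 bp there were 7 such sites, 1 near PIF4, 2 at PIF5 and 4 around HFR1, and none at PIF1 or PIF3. The ratio of ethylene to air tags, each relative to the genome average, was 0.962 (0.756 to 1.22) at the site inside PIF5 and 1.18 (0.937 to 1.48) at the site beyond its upper edge. It was 0.867 (0.621 to 1.21) at the site below PIF4. Around HFR1 it was 1.21 (0.903 to 1.63) in AT1G02330, 1.16 (0.866 to 1.55) in GL22, 0.939 (0.546 to 1.61) at the site 921 bp above HFR1 and 1.03 (0.668 to 1.57) at AT1G02350. All 7 exact intervals include 1, so a difference between these 2 libraries was not detectable at these sites at this depth. Ratios from 0.546 to 1.63 lie within 1 or more of the intervals. The intervals compare libraries and not treatments, since each treatment had 1 library, and each summit is the highest point of its own peak. Sites called in 1 list alone have no ratio, so the 7 leave out places where the libraries may differ most. Among those left out are the air peak in PIF4 with 72 tags and the ethylene peak beside PIF5 with 49 tags.

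At the site inside PIF5, fold and tags did not order ethylene and air alike. The tag ratio there was 0.962, but the fold was 2.39 in ethylene and 2.06 in air. Fold and tags ran the same way below PIF4 and beyond PIF5. Below PIF4 the fold was 4.90 in ethylene and 6.64 in air, and beyond PIF5 it was 7.86 in ethylene and 5.23 in air. At both sites the treatment with the higher fold had the lower local control level. Below PIF4 that level was 1.15 times the genome average in ethylene and 1.00 in air, and beyond PIF5 it was 1.81 in ethylene and 2.41 in air. The inputs of the 2 treatments were separate libraries of 4809861 (ethylene) and 7160364 (air) tags, and the part of the input in these fold differences was not tested.

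The wider family and pathway were described from 3 further lists. Of the 10 other genes of the PIF subfamily, SPT alone had ENAP1 ChIP peaks, in ethylene (2.76-fold) and in air (2.60-fold). Both summits lay more than 500 bp from SPT and nearer to another gene. With each peak given to its nearest gene only, SPT kept a 2.52-fold ethylene peak and no air peak. SPT encodes a factor of carpel growth and seed germination. Neither PIL1, whose transcript responds to shade, nor PIF7, a factor of the shade response, had a peak by the 1000 bp rule in any list. The ethylene reChIP had peaks at 6 of the 10 (60%, beside 34.0% of all genes), namely PIF6 and bHLH119 (AT4G28811), both with a q of 0.0248 on 4 tags, and UNE10, SPT, ALC and bHLH127 (AT4G28815), each with a q above 0.05 on 3 or 4 tags. With a q of 0.05 or lower the count was thus 2 of 10 (20%, beside 22.5% of all genes). The median highest fold of the 6 was 2.92, beside 3.56 over all genes with a peak. The air reChIP had 1 of 10 (30.5% of all genes), again SPT, with a summit more than 500 bp from SPT and nearer to another gene.

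Of 23 genes that act on PIF proteins or PIF genes, 16 had an ENAP1 ChIP peak in ethylene and 13 in air (69.6% and 56.5%, beside 36.4% and 38.6% of all genes). Their median highest fold was 2.91 in ethylene and 2.74 in air, beside 3.07 and 2.92 over all genes with a peak. Highest in ethylene were BIN2, a kinase that marks PIFs for breakdown (3.91-fold in ethylene, 3.73 in air), EIL1, the closest relative of EIN3 (3.85 in ethylene, 2.58 in air), ELF3, a clock protein that limits PIF4 (3.63 in ethylene, no air peak), PAR2, a helix-loop-helix inhibitor (3.18 in ethylene, 2.82 in air) and the photoreceptor gene PHYA (3.14 in ethylene, 2.80 in air). The PAR2 summits lay more than 500 bp from PAR2 and nearer to another gene. LRB1, a subunit of a ubiquitin ligase for PIF3, led the air list at 3.89-fold and stood at 2.99-fold in ethylene, and its partner LRB2 had 3.03-fold in ethylene and 3.09-fold in air. COP1, the ubiquitin ligase that removes HFR1 in darkness, had a fold of 2.66 in ethylene and 3.00 in air. The list was not matched for gene length, and it was chosen with earlier results of these data known.

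In reChIP, 9 of these 23 genes had a peak in ethylene and 5 in air (39.1% and 21.7%, beside 34.0% and 30.5%). PPK4 (AT2G25760), a kinase of the family that phosphorylates PIF3, had the highest ethylene value at 6.11-fold on 8 tags, at percentile 98.6 of the list. The photoreceptor gene PHYB followed at 4.28-fold without an ENAP1 ChIP peak, then ELF4, a partner of ELF3, at 4.13-fold, EBF1, which directs the breakdown of EIN3, at 4.11-fold, and PPK1 at 3.39-fold. EIN3 had an ethylene reChIP peak of 2.78-fold over the air reChIP and an air reChIP peak of 5.80-fold over input, each on 11 tags, and no ENAP1 ChIP peak. The folds of these lists have different controls and are not compared. With a q of 0.05 or lower, 6 of the 23 had a reChIP peak in ethylene (26.1%, beside 22.5% of all genes) and 1, EIN3, in air (4.35%, beside 7.07%). These shares are near those of all genes. Within 3000 bp the air reChIP count was 11 of 23 (47.8%, beside 49.9%).

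Of 15 direct targets of PIF proteins, 4 had an ENAP1 ChIP peak in ethylene and 4 in air, the same 4 genes (26.7%, beside 36.4% and 38.6%). They were PORC, a chlorophyll synthesis gene (4.81-fold in ethylene, 3.85 in air), IAA29, an auxin response gene (4.25 in ethylene, 2.84 in air), FHL, a gene for nuclear import of phytochrome A (3.34 in ethylene, 2.36 in air), and BBX28 (2.62 in ethylene, 2.71 in air). The IAA29 summits lay more than 500 bp from IAA29 and nearer to another gene. The ethylene reChIP had peaks at 6 of 15 (40%, beside 34.0% of all genes). With a q of 0.05 or lower the count was 4 of 15 (26.7%, beside 22.5% of all genes). Highest of the 6 were the cytokinin oxidase gene CKX5 (4.07-fold) and the chlorophyll synthesis gene PORA (4.04-fold), each on 5 tags. IAA19 (3.53-fold), IAA29 (3.39-fold, its summit again nearer to another gene) and BBX28 (2.89-fold, q of 0.0946) came next. The air reChIP had 4 of 15 (26.7%, beside 30.5%), led by PORB (3.72-fold), YUC8 (3.49-fold), PORC (3.38-fold) and CKX5 (3.25-fold), each on 5 tags with a q above 0.05. HLS1, the apical hook gene that PIFs and EIN3 share as a target, had no peak by the 1000 bp rule in any list. The counts of this list grew with the window: the air ENAP1 ChIP had 9 of 15 within 2000 bp (60%, beside 46.9% of all genes). Within 3000 bp there were 9 in the ethylene ENAP1 ChIP (60%, beside 52.6%), 10 in the air ENAP1 ChIP (66.7%, beside 55.3%), 11 in the ethylene reChIP (73.3%, beside 52.5%) and 10 in the air reChIP (66.7%, beside 49.9%).

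**Figure D4:**
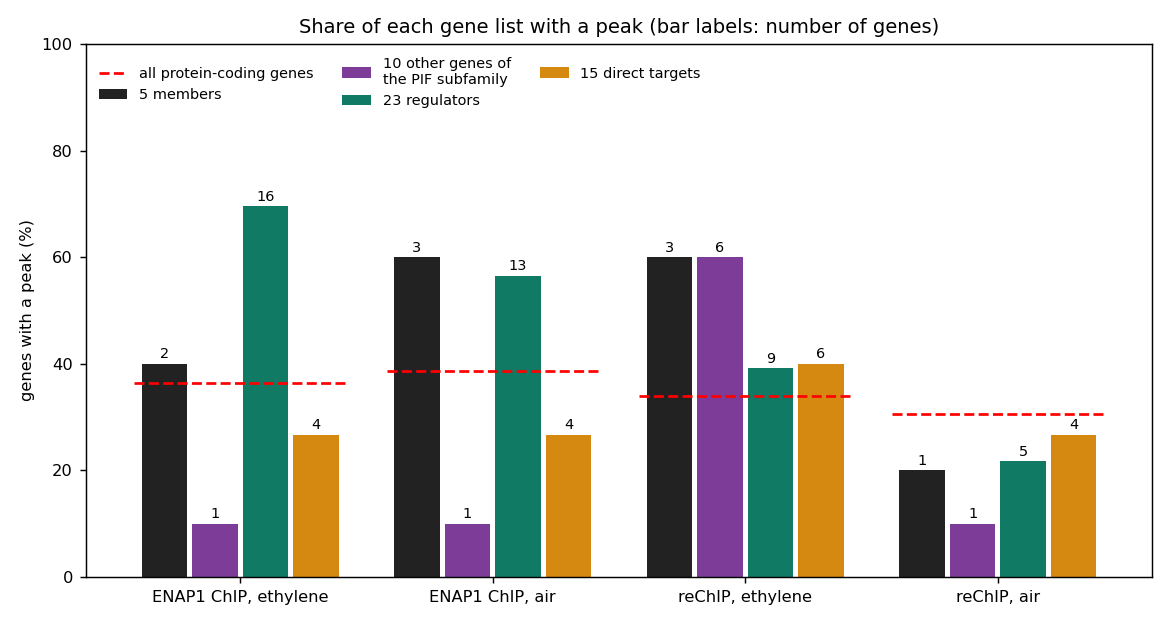
Share of genes with a peak (vertical axis, percent) in each of the 4 lists for the 5 genes and for the 3 further gene lists, with the number of genes above each bar and the share of all protein-coding genes as a dashed line. The 23 regulators stand at 69.6% in the ethylene and 56.5% in the air ENAP1 ChIP, and the 10 other subfamily genes at 10% in both.

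By the percentile of the highest fold in each of the 4 lists, the genes most like PIF3 were AT4G34555 (mean difference of 1.59 percentile points over 4 lists) and BGLU42 (2.74). BGLU42 also had an ethylene ENAP1 ChIP peak, at percentile 4.16, where PIF3 had none. Those most like PIF5 were its neighbour PAO3, which shares its peaks (0 points), and AT5G21130 (3.37). Those most like PIF4 were AT1G30475 and DRT111 (AT1G30480), at 0.014 points each. These 2 have the same 4 percentiles, and whether they share 1 peak was not checked. For PIF1 and HFR1, 11 and 16 genes had the same 4 percentiles. The highest folds at PIF1 (7 tags) and HFR1 (29 tags) lay over a control at the genome average, where equal tags give equal folds. IDD7 and AT1G70220 came first for PIF1, and IGMT5 and AT2G34020 for HFR1. Peaks in the same lists as PIF1, with none in the others, were found at 3135 other genes, and the number was 192 for PIF3, 832 for PIF4, 2618 for PIF5 and 582 for HFR1.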

How the data were processed

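Samples were grouped by title, because the treatment entry of ethylene samples reads air. The submitters' processing notes name BWA and TAIR10. The authors called peaks with MACS2 2.1.0.20150603 at a p cutoff of 0.01 on single libraries, per the file headers, which give 1 tag per position and a genome size of 120000000 bp. The 2 air lists share 1 control library, the ethylene ENAP1 ChIP had its own, and the ethylene reChIP was called against the air reChIP. Each list holds, as deposited, the summit pileup (a signal, with the larger library scaled down to the smaller), p and q as −log10, and fold enrichment as a ratio. The headers announce no q, yet the column holds values. Widths and positions were used as deposited.

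Here the scaling was reversed to give tags (100% of values within 0.02 of a whole number), and the local control was computed as (pileup + 1) / fold − 1. The genome average is tags × fragment length / genome size. Genes came from a RefSeq table of TAIR10.1, in which all 53 listed loci were found. Its register was checked on the air ENAP1 ChIP: 40.5% of summits lay inside a gene within 200 bp of its edge, and at most 10.6% did with the table shifted by 1000 to 10000 bp. Strand, exons and sequence were not used here. Intervals are exact Poisson 95%, and for ratios exact conditional binomial (Clopper-Pearson). Assignment and intervals were tested on simulated data. Python 3.11.15, pandas 2.3.3, NumPy 2.4.6, SciPy 1.17.1 and matplotlib 3.10.9 were used.

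Named were the 5 genes, neighbours sharing or nearer to their peaks, up to 5 listed genes with the highest fold per list, and the 2 genes most like each; other listed genes were named after their values were seen. Members, lists and rules were chosen with earlier results of these data known.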

Additional observations from a re-analysis of the deposited data

How the results depend on the processing

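No paired analysis was possible because each group had 1 library, and no library could be left out. Of the 36 alternatives to the counts of the 5 genes and of their shared peaks, 28 stayed within 1.5 times the count reported. Limited to peaks whose −log10 q reached 5, the genes with a peak numbered 1 in the ethylene ENAP1 ChIP (PIF5), 0 in the ethylene reChIP and 0 in the air reChIP, and 1 ethylene peak overlapped an air one, since this limit keeps fewer peaks. The air reChIP count was 0 with a q of 0.05 or lower and 2 with windows of 2000 or 3000 bp, where HFR1 entered. With summits at most 100 bp apart as the rule, 0 of the 4 ethylene peaks matched an air peak, as the nearest were 101 and 132 bp apart. Windows of 500 bp, the nearest gene only, any base of the peak and the same number of peaks per list (8858) moved 0 of these counts by more than 1.5 times. The last could not change the ethylene ENAP1 ChIP, whose whole list is 8858 peaks. Any base of the peak brought HFR1 into the air ENAP1 ChIP, a rise from 3 to 4 genes that stays within 1.5 times. Within 3000 bp, the highest fold at PIF4 in air was 6.64, at PIF5 7.86 in ethylene and 5.23 in air, and at HFR1 3.43 in ethylene. Of 96 alternatives to the counts of the 3 further lists, 30 moved by more than 1.5 times, 14 to more genes and 16 to fewer: 17 of 32 for the other subfamily genes, where most counts are 1, 4 of 32 for the regulators and 9 of 32 for the PIF targets. reChIP values rest on 2 to 11 tags and have wide counting intervals.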
